A study of Mus musculus with 8 samples.

Results

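The D-type cyclins and their kinases were examined in NIH3T3 cells sorted in G0 or G1. The genes are Ccnd1, Ccnd2 and Ccnd3, which encode cyclins D1, D2 and D3, and Cdk4 and Cdk6, which encode the cyclin-dependent kinases (CDKs) that the D-type cyclins activate. They were chosen by name, as every probe set whose single platform gene symbol was one of these 5 genes, and 19 of the 45037 probe sets on the array met that rule, for 5 of the 18193 genes with a probe set of their own. Ccnd2 had 7 probe sets, and each of the other genes had 3. NIH3T3 is a long-established line of mouse embryo fibroblasts. It had been transduced with 2 reporters, mVenus-p27K-, which carries p27 in mutant form fused to mVenus, and mCherry-hCdt1(30/120), a fusion of mCherry with a fragment of human Cdt1. All cells, in both groups, had been kept without serum and then cultured for 5 h in medium with 10% serum. The G0 group was positive for both colours, and the G1 group had lost mVenus and kept mCherry. Each group had 4 arrays of total RNA, and no array of cells kept without serum was analysed here. The labels do not say whether the transduced cells were 1 clone or whether replicates were separate cultures, and a p-value here therefore covers the spread between arrays, which may be technical.

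D-type cyclins are the part of the cell cycle machinery that growth factors control most directly. Serum raises their synthesis, they bind Cdk4 or Cdk6, and the active kinase phosphorylates Rb, which releases E2F transcription factors and with them cyclin E and the genes of S phase. In resting fibroblasts the INK4 proteins oppose Cdk4 and Cdk6, and p27 binds cyclin-CDK complexes. The p27 protein is removed as cells leave quiescence, and loss of its reporter is what separated the sorted groups. The comparison asks whether the transcripts of the D-type cyclins and their kinases differ between cells of a serum-stimulated culture that still hold the p27 reporter and cells that have lost it.

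All values are log2 expression relative to the median of the same probe set over the 8 arrays, so they show differences between arrays and no absolute level. A value of 1 is a doubling over that median. Which of the 3 cyclins was the most abundant, and whether any of them was expressed at all, cannot be read from these values, and the same holds for markers of fibroblasts. In RNA from a whole sorted population, fewer cells that express a gene and less RNA per cell cannot be told apart.

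On 2 arrays, titled G0 replicate 3 and G1 replicate 4, the poly-A control RNAs, spiked in ahead of labelling, were missing, with medians of −7.12 and −6.40 against −0.14 to 0.62 on the other 6. The labels instead put replicate 4 of each group under another revision of the labelling protocol, with another amount of RNA. Each difference was therefore fitted with the labelled batch as covariate and again with presence of the spike-ins as covariate (the spike-in fit), and the 6 arrays with spike-ins were also fitted alone. The 2 fits of 8 arrays give the same difference with different errors, because both batches are balanced between the groups.

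No probe set of the D-type cyclins, Cdk4 or Cdk6 differed between G1 and G0 past the threshold. In limma 0 of the 19 had an adjusted p under 0.05, where 0.4% of all probe sets did, and 0 of the 19 had an unadjusted p under 0.05, against 7.3% of all. In the spike-in fit 0 passed (0.788% of all), and before adjustment, at a p under 0.05, 2 were higher in G1 (5.15% of all) and 3 lower (6.11% of all). The fit of 6 arrays also passed 0 (0.0977% of all), and before adjustment 0 were higher (3.96% of all) and 1 was lower (4.2% of all). Of the 5 gene means, each over all probe sets of a gene, 0 passed in any of these fits, where 0.588%, 1.25% and 0.275% of all genes did. The estimated log2 difference, G1 minus G0, was under 1 in size for 18 of the 19 probe sets and for 85% of all probe sets. Whether these shares differ was not tested. The median difference was −0.0044, against −0.06 for all, and 9 of the 19 were positive, against 45% of all. The confidence intervals with the labelled batch do not bound every member's difference under 1 in size. The narrowest, of Cdk4 1422439_a_at, ran from −0.25 to 0.66, and the widest, of Ccnd3 1444323_at, from −1.37 to 2.39.

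**Figure D1:**
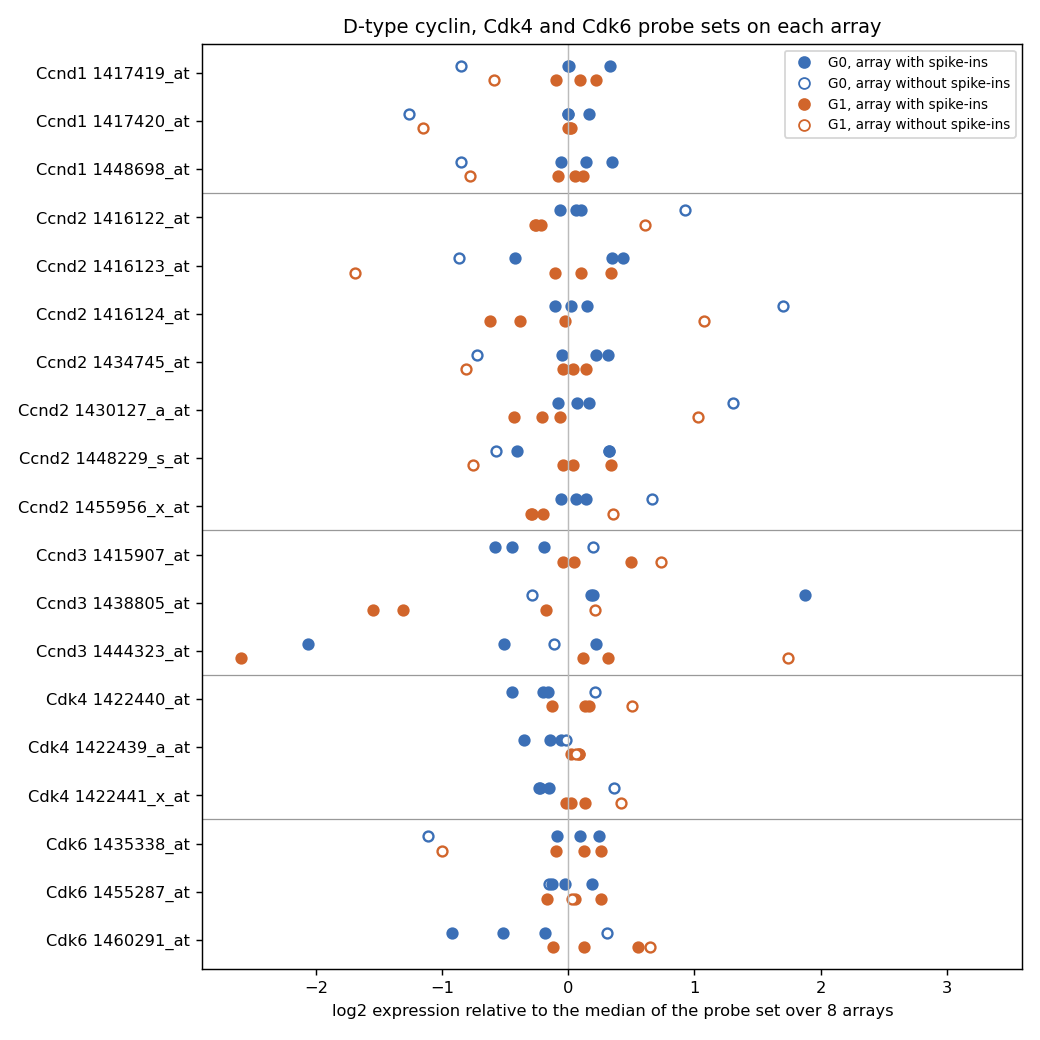
Each row is a probe set and each point an array, placed by its log2 expression relative to the probe set's median over the 8 arrays (blue G0, orange G1, open circles the arrays without spike-ins). The Ccnd1 points of both groups lie together between −0.096 and 0.35 on the 6 arrays with spike-ins, and the open circles lie apart in Ccnd1 and Ccnd2.

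Cyclin D1 is the D-type cyclin most closely tied to mitogen signalling in fibroblasts. On the probe set 1417419_at, Ccnd1 read −0.0045, 0.33, −0.85 and 0.0045 in G0 replicates 1 to 4. It read −0.096, 0.22, 0.09 and −0.59 in G1 replicates 1 to 4. The groups overlapped throughout, and the low value of each group came from an array without spike-ins. The log2 difference was 0.04 (SE 0.33, 95% confidence interval −0.75 to 0.82, limma, adjusted p = 0.995). In the spike-in fit the interval was −0.39 to 0.46, from 0.764-fold to 1.38-fold.

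The other Ccnd1 probe sets gave the same picture. For 1417420_at the G0 values were −0.0022, 0.16, −1.27 and −0.0014, and the G1 values 0.010, 0.018, 0.0014 and −1.15. Apart from the arrays without spike-ins, its 6 readings lay within −0.0022 and 0.16. For 1448698_at the G0 values were 0.14, 0.35, −0.85 and −0.05, and the G1 values 0.12, 0.05, −0.08 and −0.78. Their differences were −0.0044 and −0.07 (adjusted p = 1.000 and 0.989, limma). The estimated difference in Ccnd1 transcript between the sorted groups was thus smaller than the spread between arrays on each of its 3 probe sets. The widest interval was that of 1417420_at. It ran from −1.08 to 1.07 with the labelled batch, from 0.473-fold to 2.10-fold, and from −0.49 to 0.48 in the spike-in fit.

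Cyclin D2 shares its kinase partners with cyclin D1. All of its 7 probe sets had a negative difference in the fit on 8 arrays, as had 24760 of all 45037 probe sets. The 7 ran from −0.43 for 1416124_at to −0.02 for 1448229_s_at, and 0 of them passed. The probe set 1416122_at read 0.10, 0.06, 0.92 and −0.06 in G0 replicates 1 to 4. In G1 it read −0.26, −0.27, −0.22 and 0.61. The 3 G1 arrays with spike-ins lay below all 3 such G0 arrays, while the arrays without spike-ins were the highest of their groups. The difference was −0.29 (SE 0.32, adjusted p = 0.929, limma), or 1.22-fold lower in G1. Without G0 replicate 3, which leaves G1 replicate 4 as the only array without spike-ins, it was −0.034. With both arrays without spike-ins left out it was −0.28. Without replicate 4 of either group it was −0.61, the same as with revision 8 alone. The other replicate 4 is then the only array of its labelled batch and adds nothing to the difference. Its interval in the spike-in fit was −0.56 to −0.01 (adjusted p = 0.424).

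The probe set 1455956_x_at behaved alike, at 0.06, 0.14, 0.67 and −0.06 in G0 and −0.30, −0.29, −0.20 and 0.35 in G1. Its suffix marks probes that may also bind other transcripts. Its difference was −0.31 (SE 0.26, adjusted p = 0.888, limma), with an interval of −0.60 to −0.02 in the spike-in fit (adjusted p = 0.414). For 1416124_at the G0 values were 0.02, 0.15, 1.70 and −0.11, and the G1 values −0.62, −0.38, −0.02 and 1.07. Here 1 G1 array with spike-ins lay inside the G0 range, at −0.02, and the interval in the spike-in fit was −0.85 to −0.01 (adjusted p = 0.433). For 1430127_a_at the G0 values were −0.08, 0.17, 1.31 and 0.07, and the G1 values −0.21, −0.43, −0.07 and 1.03, a difference of −0.28.

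The remaining Ccnd2 probe sets were nearer to 0. For 1416123_at the G0 values were 0.43, 0.35, −0.87 and −0.42, and the G1 values −0.10, 0.10, 0.34 and −1.69. For 1434745_at they were 0.32, 0.22, −0.73 and −0.05 in G0 and 0.14, 0.04, −0.04 and −0.81 in G1. For 1448229_s_at they were 0.33, 0.33, −0.57 and −0.41 in G0 and −0.04, 0.04, 0.34 and −0.76 in G1. In these 3 the groups overlapped with and without the arrays that lack spike-ins. On the 6 arrays with spike-ins the differences were −0.0063 (SE 0.28), −0.12 and 0.03. Of the 7 Ccnd2 probe sets 6 were negative there, 1416123_at only by that −0.0063, as were 25226 of all 45037 probe sets. The 7 read the same arrays and are not replicates.

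The probe sets of Ccnd2 parted on the arrays without spike-ins. The 4 probe sets 1416122_at, 1416124_at, 1430127_a_at and 1455956_x_at were higher on both of those arrays than on any other, and the 3 probe sets 1416123_at, 1434745_at and 1448229_s_at were lower on both than on any other. The distance between the highest and the lowest Ccnd2 probe set was 0.28 to 0.76 on the arrays with spike-ins, and 2.57 and 2.76 on those without. A mean over the 7 hides this, and it read 0.17, 0.20, 0.35 and −0.15 in G0 and −0.20, −0.17, 0.02 and −0.03 in G1. The mean differed by −0.24 (SE 0.18, adjusted p = 0.781, limma on gene means).

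The same 2 arrays stood apart in other members. Set against the 6 arrays with spike-ins in the spike-in fit, 3 of the 19 probe sets were higher (3.94% of all probe sets were called higher) and 2 were lower (0.808% of all). The higher ones were Ccnd2 1416124_at (1.55, SE 0.20, adjusted p = 0.018), 1430127_a_at (1.26, adjusted p = 0.018) and 1416122_at (0.87, adjusted p = 0.022). The lower ones were Ccnd1 1417420_at (−1.24, SE 0.23, adjusted p = 0.037) and Cdk6 1435338_at (−1.15, adjusted p = 0.041). Without overlap between these sets of arrays, 6 probe sets lay above (15.9% of all) and 7 below (8.34% of all). All 3 Ccnd1 probe sets were among the 7. The manufacturer's controls for the ends of a transcript moved with this contrast. Those of beta-actin were higher on the arrays without spike-ins by 0.41 at the 3′ end and by 1.20 at the 5′ end, those of Gapdh by 0.46 and 0.65, and those of the transferrin receptor by 2.35 and 4.22. The part of transcript position in the values of the D-type cyclin probe sets was not tested.

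Cyclin D3 is the D-type cyclin best known from differentiating and lymphoid cells, and it too pairs with Cdk4 and Cdk6. On the probe set 1415907_at, Ccnd3 read −0.19, −0.45, 0.20 and −0.58 in G0 replicates 1 to 4. In G1 it read 0.49, 0.04, −0.04 and 0.74. On the 6 arrays with spike-ins every G1 value lay above every G0 value, and the overlap over 8 arrays came from G0 replicate 3. On this probe set the difference was 0.56, or 1.48-fold (SE 0.28, adjusted p = 0.762, limma, 95% confidence interval −0.10 to 1.23). In the spike-in fit the interval was 0.14 to 0.98 (adjusted p = 0.309). Within the labelled batches the difference was 0.31 and 1.32, and within the batches that the spike-ins show 0.57 and 0.54.

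The other Ccnd3 probe sets scattered widely and disagreed. For 1438805_at the G0 values were 0.18, 1.88, −0.28 and 0.19, and the G1 values −0.18, −1.55, −1.31 and 0.21. This is the only member whose difference exceeded 1 in size, at −1.20 (SE 0.60, interval −2.60 to 0.20, adjusted p = 0.758, limma), and its sign is opposite to that of 1415907_at. Without G0 replicate 2 it was −0.67, and without G1 replicate 2 −0.94. It was also the 1 member with an unadjusted p under 0.05 on the 6 arrays with spike-ins, at −1.76 (SE 0.61, adjusted p = 0.555). For 1444323_at the G0 values were −2.07, −0.51, −0.12 and 0.22, and the G1 values −2.60, 0.32, 0.12 and 1.74, a spread too wide to place the groups (0.51, SE 0.80). With no absolute level, whether these probe sets read a low signal cannot be seen. The mean over the 3 differed by −0.04 (SE 0.35). The values do not show which of the 3 reads the gene best, so they give no direction for Ccnd3. Below, where 1 probe set stands for Ccnd3, it is 1415907_at, taken by its suffix and number.

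**Figure D2:**
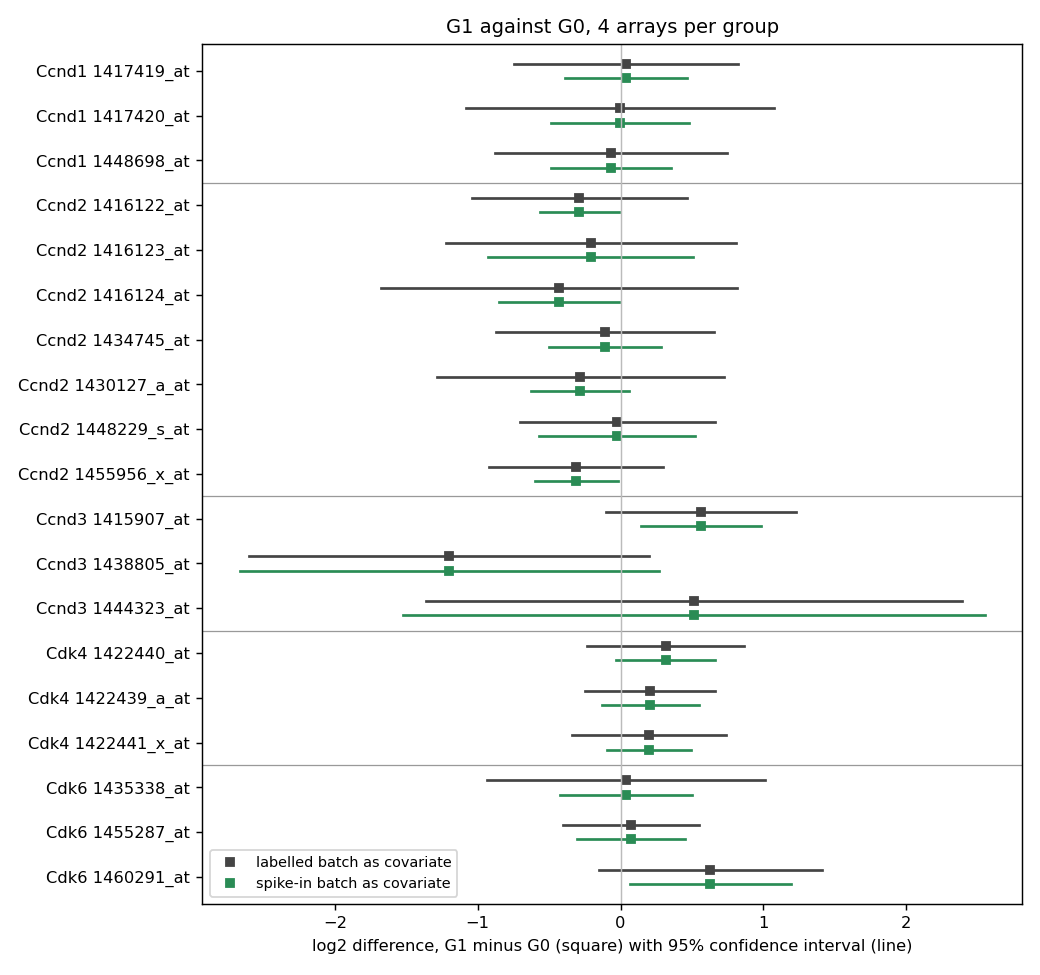
Log2 difference between G1 and G0 (squares) with its 95% confidence interval (lines) for each probe set, 4 arrays per group, with the labelled batch (grey) or the spike-in batch (green) as covariate. Every grey line crosses 0, and the green lines that do not are those of 3 Ccnd2 probe sets, of Ccnd3 1415907_at and of Cdk6 1460291_at.

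Cdk4 is the catalytic partner of the D-type cyclins in most dividing cells. Its 3 probe sets had small differences of 0.20 to 0.32, all positive (45% of all probe sets were positive), and 0 of them passed. For 1422439_a_at the G0 values were −0.35, −0.06, −0.02 and −0.15, and the G1 values 0.08, 0.08, 0.02 and 0.06. All 4 G1 values lay above all 4 G0 values, which was so for 1 of the 19 probe sets (3.16% of all probe sets lay wholly above), and 0 lay wholly below (2.9% of all). The difference was 0.21, or 1.15-fold (SE 0.20, adjusted p = 0.903, limma). An exact permutation test of the arrays, two-sided, gave p = 0.0286, the smallest that 4 against 4 allow. Groups that do not overlap always give that p, so it adds nothing to the placing of the values. This was 1 of 19 probe sets so tested, not adjusted.

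For 1422440_at the Cdk4 values were −0.44, −0.16, 0.21 and −0.20 in G0 and 0.16, 0.13, −0.13 and 0.51 in G1. The difference was 0.32 (SE 0.24, adjusted p = 0.864, limma), with an interval of −0.03 to 0.66 in the spike-in fit. For 1422441_x_at they were −0.22, −0.16, 0.36 and −0.23 in G0 and 0.14, 0.02, −0.02 and 0.42 in G1, a difference of 0.20 (SE 0.23). On the 6 arrays with spike-ins all 3 Cdk4 probe sets had every G1 value above every G0 value. Over all 19 members 5 were so placed (6.69% of all probe sets) and 3 were placed below (8.65% of all). The 5 were the 3 of Cdk4, Ccnd3 1415907_at and Cdk6 1460291_at, and the 3 were Ccnd2 1416122_at and 1455956_x_at and Ccnd3 1438805_at. The upper ends of the intervals with the labelled batch were 0.66 for 1422439_a_at, 0.74 for 1422441_x_at and 0.87 for 1422440_at, which is 1.58-fold, 1.67-fold and 1.82-fold.

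The DNA before the Cdk4 start is shown because the gene is known as a target of Myc, a serum-induced factor measured on these arrays, which binds the E-box CACGTG. The 250 bases before the annotated start, on the plus strand at chr10:127063285-127063534 of GRCm38.p6, were taken from RefSeq and hold 4 matches, in capitals.
Cdk4: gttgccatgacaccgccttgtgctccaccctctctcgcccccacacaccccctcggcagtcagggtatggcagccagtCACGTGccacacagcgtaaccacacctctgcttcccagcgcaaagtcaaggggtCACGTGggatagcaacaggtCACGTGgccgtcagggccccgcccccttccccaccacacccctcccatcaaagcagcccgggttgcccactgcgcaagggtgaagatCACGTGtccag
The matches begin 172, 118, 98 and 11 bases before the start. CACGTG reads the same on both strands. It occurs at least 1 time in 6.02% of the 32851 windows of this length and at least 4 times in 0.0213%, or 7 windows. Of the other members Ccnd3 and Cdk6 had windows in that table. The Cdk6 window held 1 match, 220 bases before the start, and the 2 windows of Ccnd3 held 0. Searched on both strands, the AP-1 letters TGANTCA, the CRE letters TGACGTCA and the E2F letters TTTCCCGC, TTTCGCGC, TTTGCCGC and TTTGGCGC were found 0 times in the 4 windows of these genes, and they occur in 6.75%, 1.55% and 1.86% of all windows. GC boxes, GGGCGG, occur in 32.7% of all windows, and both Ccnd3 windows and that of Cdk4 held them. A match is a run of letters, not a measured binding site. Myc itself differed by −0.25 between the groups (SE 0.32, adjusted p = 0.945, limma).

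Cdk6 is the second kinase of the D-type cyclins. For 1435338_at the G0 values were 0.24, 0.09, −1.12 and −0.09, and the G1 values 0.26, −0.098, 0.13 and −1.0. For 1455287_at they were −0.03, 0.19, −0.15 and −0.13 in G0 and 0.26, −0.17, 0.05 and 0.03 in G1. In both the groups overlapped, with differences of 0.04 (SE 0.42) and 0.07 (SE 0.20). The third, 1460291_at, read −0.52, −0.18, 0.30 and −0.92 in G0 and 0.56, −0.12, 0.12 and 0.65 in G1. Its difference was 0.63, or 1.55-fold (SE 0.33, adjusted p = 0.771, limma), and it did not pass. Without replicate 4 of either group it was 0.32. The interval in the spike-in fit was 0.065 to 1.19 (adjusted p = 0.396). Within the labelled batches the difference of 1460291_at was 0.32 and 1.57, and within those that the spike-ins show 0.72 and 0.34.

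A difference between 2 genes on the same array does not depend on how that array was scaled. One probe set per gene, chosen by its suffix and number, was used for this. Ccnd3 minus Ccnd2 read −0.29, −0.51, −0.72 and −0.51 in G0 replicates 1 to 4. In G1 replicates 1 to 4 it read 0.75, 0.31, 0.17 and 0.13. The groups did not overlap, the arrays without spike-ins included, and the means were −0.51 ± 0.17 and 0.34 ± 0.29 (SD, n = 4). The probe sets read here were Ccnd3 1415907_at and Ccnd2 1416122_at. With the mean of all probe sets of each gene the groups overlapped (−0.27 ± 0.46 and −0.07 ± 0.68), so the separation depends on which probe sets are read. Since each probe set was centred by itself, only the distance between the groups carries information, not the sign of a value. Of the 10 pairs of the 5 genes 2 did not overlap, this one and Cdk4 minus Ccnd2 (means of −0.40 and 0.20), where 5.78% of all gene pairs did not. These counts are a description with no test.

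The groups of the remaining 8 pairs overlapped. Ccnd2 minus Ccnd1 was 0.39 ± 0.93 in G0 and 0.06 ± 0.77 in G1. Ccnd3 minus Ccnd1 was −0.13 ± 0.82 and 0.40 ± 0.71, and its groups overlapped only through G0 replicate 3. Cdk4 minus Cdk6 was 0.07 ± 0.87 and 0.35 ± 0.80.

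**Figure D3:**
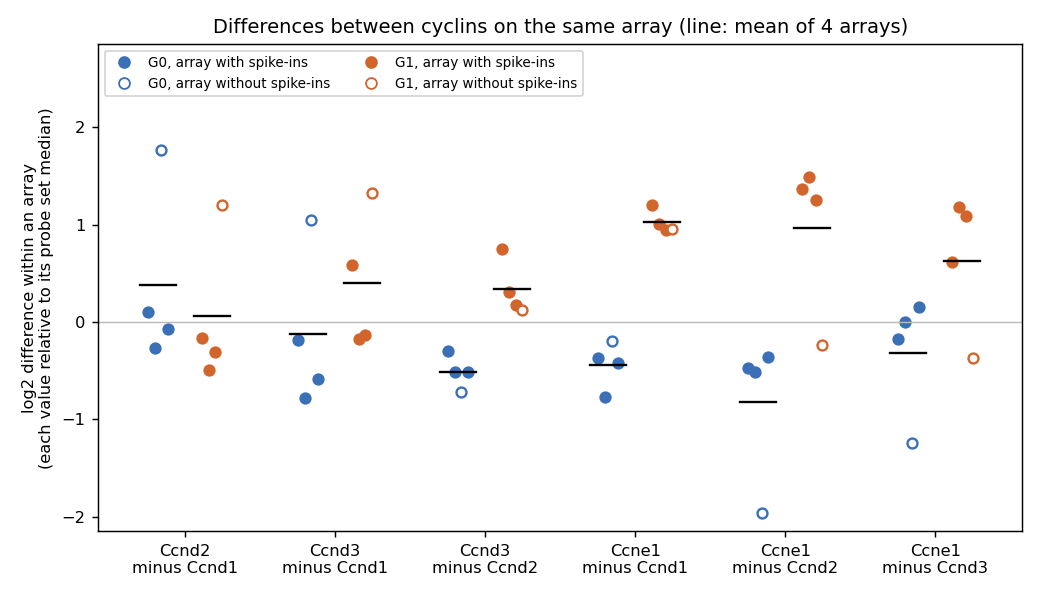
Differences between 2 cyclins on the same array, from 1 probe set per gene (blue G0, orange G1, open circles the arrays without spike-ins, lines the mean of 4 arrays). In Ccnd3 minus Ccnd2, Ccne1 minus Ccnd1 and Ccne1 minus Ccnd2 every G1 value lies above every G0 value, and in the others the groups overlap. Ccne1 by itself also has every G1 value above every G0 value.

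The likeness of other genes was measured as the mean absolute difference in log2 value over the 8 arrays, with 1 probe set per gene. The closest gene to Ccnd3, read on 1415907_at, was Cdkn1a, the gene of the CDK inhibitor p21, at 0.049. Cdkn1a read −0.11, −0.53, 0.23 and −0.62 in G0 and 0.48, 0.10, −0.10 and 0.77 in G1, and differed by 0.57 (SE 0.30, adjusted p = 0.771, limma). After it came Uck1 (0.086) and Ncaph2 (0.088). The closest to Ccnd1 were Gars (0.067), Map4 (0.068) and Tada2b (0.068), and the closest to Ccnd2 were Tfg (0.071), Asl (0.078) and Got1 (0.082). Those closest to Cdk4 were Trim28 (0.076), Wwp1 (0.090) and Carhsp1 (0.091), and those closest to Cdk6 were Trmt61a (0.065), Pam (0.11) and Synj1 (0.11). Among the members themselves the closest pair was Ccnd3 and Cdk4 (0.21), followed by Ccnd1 and Cdk6 (0.25). The arrays without spike-ins weigh on this measure, since their values lie farthest from the median for Ccnd1, Ccnd2 and Cdk6 (low for Ccnd1 and Cdk6, high for Ccnd2).

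The genes next to the D-type cyclins in the pathway were read from lists by role, again with 1 probe set per gene and p-values adjusted over all 45037 probe sets. Of the 18193 genes so represented, 0.5% were higher and 0.022% lower past the threshold, and the median difference was −0.06. Before adjustment 4.33% were higher and 3.74% lower at a p under 0.05. Among 7 inhibitors of the INK4 and Cip/Kip families 0 passed in limma and 0 had an unadjusted p under 0.05, with a median of 0.57. Cdkn2d, an INK4 protein, differed by 1.12 (SE 0.50, adjusted p = 0.703), and Cdkn1c (p57) by −1.17 (SE 0.99, adjusted p = 0.890). Cdkn1b, the gene of p27, differed by −0.56 (SE 0.61, adjusted p = 0.926). The sort was made on a p27 reporter, and its probe set could read the transgene.

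Of 10 genes of the Rb family, E2F and DP, the substrates of these kinases and the factors they hold, 0 passed in limma, and at an unadjusted p under 0.05 there were 5 higher and 0 lower. The list's median was 0.34. E2f2, an activating E2F, differed by 2.07 (SE 0.60, adjusted p = 0.430), Tfdp2, a DP partner, by 1.03 (adjusted p = 0.475) and Rbl1 (p107) by 0.83 (adjusted p = 0.432). In each of them, and in Tfdp1, the 4 G1 values lay above the 4 G0 values, as in 3.16% of all probe sets. In the other genes of the list the groups overlapped. Rb1 itself differed by 0.0034 (SE 0.27).

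Among the genes of the next kinase, cyclin E with Cdk2 and its phosphatase Cdc25a, 0 of 4 passed in limma with the labelled batch (median 1.13), and the unadjusted p was under 0.05 for 3, all higher. In the spike-in fit 2 passed (0.929% of all genes were then called higher). Those were Ccne1, cyclin E1 (1.5, SE 0.12, adjusted p = 0.0060), and Ccne2, cyclin E2 (1.51, SE 0.18, adjusted p = 0.019). In the fit of 6 arrays 0 of the 4 passed. With the labelled batch their adjusted p was 0.113 and 0.132, and Cdc25a differed by 0.76 (SE 0.22, adjusted p = 0.430). Ccne1 read −0.37, −0.45, −1.04 and −0.42 in G0 and 1.11, 1.22, 1.04 and 0.37 in G1. On the same arrays Ccne1 minus Ccnd1 was −0.37, −0.77, −0.19 and −0.42 in G0 and 1.20, 1.00, 0.95 and 0.96 in G1. The groups of that difference did not overlap, with means of −0.44 ± 0.24 and 1.03 ± 0.12 (SD, n = 4). Ccne1 minus Ccnd2 did not overlap either (−0.82 ± 0.76 and 0.97 ± 0.81). Of all gene pairs 5.78% did not overlap. Ccne1 by itself already had every G1 value above every G0 value, so these separations say little about Ccnd1 and Ccnd2. Ccne1 minus Ccnd3 overlapped over 8 arrays and not over the 6 with spike-ins.

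Among the measured genes of the CDK-activating kinase and of Cdk4 folding, 0 of 5 passed and 0 had an unadjusted p under 0.05 in limma (median 0.0042). Cdk7, the activating kinase, differed by −0.31 (SE 0.20, adjusted p = 0.832), its assembly factor Mnat1 by −0.29 (adjusted p = 0.823) and the chaperone Hsp90aa1 by 0.24 (adjusted p = 0.926). Of 10 genes of cyclin D phosphorylation and turnover 0 passed, with 1 higher and 1 lower at an unadjusted p under 0.05 (median −0.20). Skp2, an F-box protein better known for p27, differed by 1.27 (SE 0.25, adjusted p = 0.159). Fbxo4, an F-box protein linked to cyclin D1, differed by −1.79 (SE 0.58, adjusted p = 0.515), and Gsk3b, a kinase that phosphorylates cyclin D1, by −0.41 (SE 0.27, adjusted p = 0.831).

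Of 13 serum-responsive activators of D-type cyclin transcription 0 passed in limma and 0 had an unadjusted p under 0.05, with a median of −0.24. The 3 with the smallest p were Jund (0.43, adjusted p = 0.828), Jun (−0.26, adjusted p = 0.903) and Ets2 (−0.24, adjusted p = 0.919). Of 8 repressors 0 passed, with 0 higher and 1 lower at an unadjusted p under 0.05 (median −0.27). That gene was the antiproliferative factor Tob1, at −1.08 (SE 0.35, adjusted p = 0.525). Foxo3, a factor that restrains Ccnd1 and Ccnd2 in quiescent cells, differed by −0.72 (SE 0.41, adjusted p = 0.797), and Mxd4 by −0.66 (SE 0.40, adjusted p = 0.819).

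Genes at the far end of the pathway included some that rose. Of 14 measured S phase genes that E2F drives, 3 were higher in G1 past the threshold (0.5% of all genes) and 11 did not pass. All 14 had a positive difference, as had 8128 of all 18193 genes, and the median was 1.24. Tk1, thymidine kinase, was 6.05-fold higher (2.60, SE 0.34, adjusted p = 0.033, limma). Rrm1, a subunit of ribonucleotide reductase, rose 3.23-fold (1.69, SE 0.20, adjusted p = 0.022), and Pola1, of the primase complex, 2.99-fold higher (1.58, SE 0.23, adjusted p = 0.048). In the fit of 6 arrays 0 of the 14 passed (0.165% of all genes were higher), and 7 did in the spike-in fit (0.929%). Cdt1, the other sorting gene, differed by 0.39 (SE 0.20, adjusted p = 0.769).

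**Figure D4:**
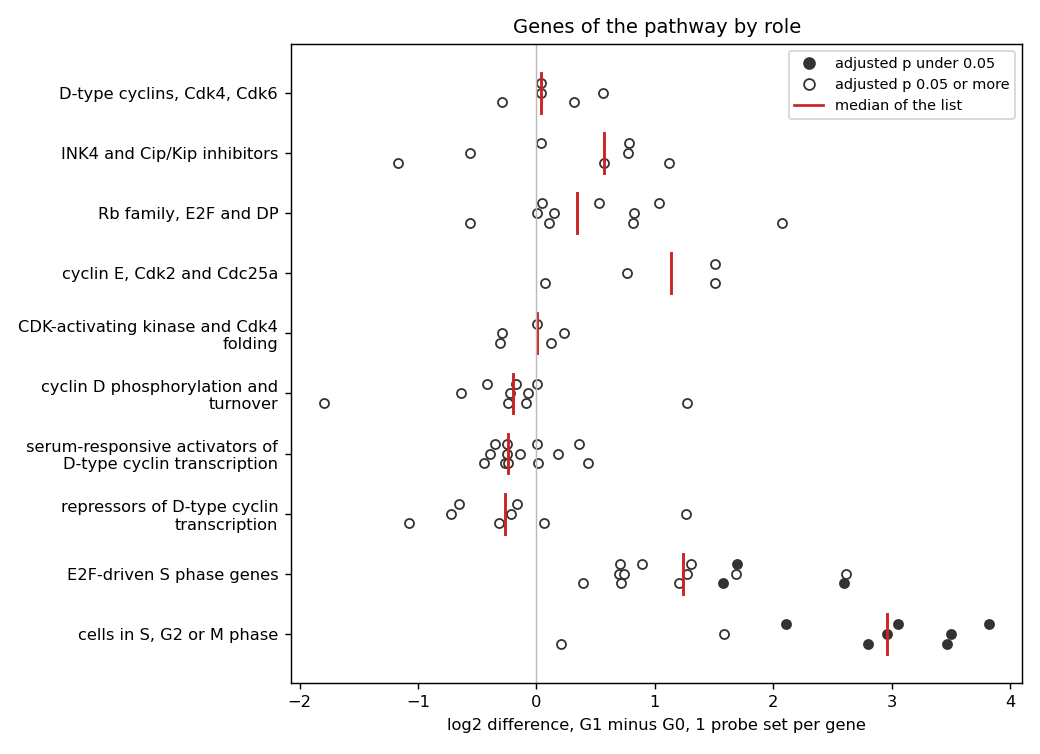
Log2 difference between G1 and G0 for each gene of the lists, by role, from 1 probe set per gene (filled where the adjusted p in limma is under 0.05, red line the median of the list). The 5 genes of the D-type cyclins, Cdk4 and Cdk6 lie between −0.29 and 0.56, and all filled points belong to the S phase genes and to the markers of cells in S, G2 or M phase.

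Markers of cells in S, G2 or M phase, when the Cdt1 reporter is degraded, also moved with the groups. Of 9 measured, 7 were higher in G1 past the threshold (0.5% of all genes) and 0 lower (0.022%). The 7 were Mki67, Birc5, Aurkb, Bub1, Ccna2, Plk1 and Cdk1. In the fit of 6 arrays 6 of the 9 passed (0.165% of all genes were higher) and in the spike-in fit 8 (0.929%). The calls made with the labelled batch, here and among the S phase genes, were all lost with replicates 1 to 3 alone (labelling protocol revision 8). The same held in 6 of the 8 fits without 1 array (all but G0 replicates 1 and 3). They were lost too with the title number as a replicate block. In all of these fits 0 of the 45037 probe sets passed. The fits without a replicate 4 draw their difference from the arrays of revision 8 alone. Mki67, a general proliferation marker, differed by 3.82 (SE 0.25, adjusted p = 0.0089, limma), and Cdk1, the mitotic kinase, by 2.11. Medians of the 9 were −1.73 to −1.28 on the G0 arrays and 1.28 to 1.85 on the G1 arrays. Its part in the values of the D-type cyclins, their kinases and the E2F-driven genes was not tested. Of the measured fibroblast markers 0 of 9 passed, with a median difference of −0.14 and 2 of the 9 positive. Those with the smallest p differed by −0.72 (Col3a1), −0.86 (Col1a1) and −1.69 (Pdgfrb), with adjusted p = 0.432, 0.916 and 0.842 in limma, and Vim differed by 0.16. Before adjustment Col3a1 was lower, and with centred values none of this shows how much collagen RNA the cells held. Other cell types were represented by 20 marker genes, 6 of leukocytes, 5 of epithelial cells, 4 of endothelial cells and 5 of muscle or fat cells, and 0 passed in limma. Before adjustment 1 of them was higher, Pecam1 of endothelial cells at 1.16, and 1 was lower, Adgre1 of macrophages at −0.74. The others with the smallest p in their lists were Ptprc (1.05) and Cd79a (−0.40), Krt19 (1.66), Cdh1 (−0.58) and Epcam (0.84), Cdh5 (−0.94) and Tek (0.21), and Adipoq (1.61), Myog (−1.0) and Myod1 (−0.73). Whether these markers were expressed at all cannot be read from centred values.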

How the data were processed

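RNA of 8 samples was measured on Affymetrix mouse arrays, 4 per sorted group, grouped by title. The authors deposited log2 values, for which the submitters' processing notes name MAS5. The values of every probe set have a median of 0 over the arrays, so they were centred. How logs were taken is not given in the labels. The base was taken as 2, since a range of −12.4 to 5.58 is impossible in base 10. Of 45101 probe sets, 64 controls were left out. Array medians lay between −0.07 and 0.09. No level filter was possible.

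Gene names came from the platform annotation, with 34741 of 34945 single symbols updated to the gene table of GRCm38.p6. Where 1 probe set stood for a gene, suffixes were taken in the order _at, _a_at, _s_at, _x_at, then the lowest number. The test of G1 minus G0 used limma 3.58.1 under R 4.3.3 (lmFit and eBayes with trend, two-sided, labelled batch as covariate), adjusted by Benjamini-Hochberg over 45037 probe sets, or 18193 genes for gene means, at a threshold of 0.05. The fit was checked on simulated arrays with independent noise and no batch effect, so the check does not cover the batch seen in these arrays. Every member probe set is named, Cdkn1b, Cdt1 and Mki67 too, and from each list the genes past the threshold or, with under 3 of them, the 3 with the smallest p. For each member the 3 genes of greatest likeness are named. Myc, Rb1 and Tfdp1 fall outside this rule and were chosen after their values were seen. The members and lists were chosen with earlier results of these data known. Alternatives covered the batch, the arrays used, scaling, variance moderation, ties and the probe set of a gene. The number of arrays limits the precision.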

Additional observations from a re-analysis of the deposited data

Results flagged for a closer look

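In 38 groups of 4 values (19 probe sets in G0 and in G1), 7 samples lay apart from the other 3 of their group. The rule flags about 1 in 20 independent groups, but these groups share 8 arrays. Its share over all probe sets was not counted. All 7 were the arrays without spike-ins, 4 times G0 replicate 3 and 3 times G1 replicate 4. Those 2 arrays also lay wholly above the other 6 in 15.9% of all probe sets and wholly below in 8.34%. Ccnd1 1417420_at was low on both, at −1.27 in G0 replicate 3 and −1.15 in G1 replicate 4. Ccnd2 1416122_at was high on both, at 0.92 and 0.61. Ccnd2 1416124_at was high in G0 replicate 3 at 1.70, Ccnd2 1455956_x_at was high in G1 replicate 4 at 0.35, and Cdk4 1422441_x_at was high in G0 replicate 3 at 0.36. The part of the labelling in these values was not tested.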

How the results depend on the processing

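The count of 0 member probe sets and 0 member genes past the threshold held under every alternative run. Among all 45037 probe sets 180 passed, and this count was not stable. It was 355 in the spike-in fit, 44 on the 6 arrays with spike-ins, 0 with labelling protocol revision 8 alone, and 0 to 122 without single replicates. With the title number as a replicate block it was 0. Same-numbered deviations from the group means correlated by 0.07, 0.11, −0.14 and −0.14, of which the first 2 were the highest for their arrays. The titles of G0 replicates 3 and 4 are in doubt, because the spike-ins go against them. With these 2 exchanged the last 2 values would be 0.10 and 0.31, also the highest for their arrays. The 0.31 is between the 2 arrays without spike-ins, which stand apart together in many probe sets. In that value a pairing and the spike-in batch cannot be told apart. No fit with exchanged numbers was made, and the main fit used no pairing, so such a pairing was not tested. The titled block put 0 members past the threshold.

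Differences near 0 changed sign. For the mean of the Ccnd1 probe sets (−0.01) they were 0.26 with revision 8 alone, 0.014 with array median centring, 0.012 with quantile normalization and 0.037 with 1 probe set. For Ccnd3 the mean of probe sets gave −0.04 and 1 probe set 0.56. With revision 8 alone, Ccnd1 1417420_at and 1448698_at gave 0.38 and 0.15, and Ccnd2 1416123_at, 1434745_at and 1448229_s_at gave 0.14, 0.11 and 0.086. On the 6 arrays with spike-ins Ccnd1 1417419_at gave −0.037 and Ccnd2 1448229_s_at 0.031. With array weights Ccnd1 1417419_at gave −0.0059 and Cdk6 1435338_at −0.0034. Median centring gave 0.021 for Ccnd1 1417420_at and 0.0034 for Ccnd2 1448229_s_at, and quantile normalization gave 0.022 and 0.012. The cause was not tested.

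Without single replicates the gene means ran from −0.33 to 0.26 (Ccnd1), −0.36 to −0.18 (Ccnd2), −0.37 to 0.18 (Ccnd3), 0.15 to 0.36 (Cdk4) and 0.16 to 0.33 (Cdk6). The ranges were −0.24 to 0.25, −0.39 to 0.38 and −0.36 to 0.15 for Ccnd1 1417419_at, 1417420_at and 1448698_at. For Ccnd2 1416123_at, 1416124_at, 1434745_at, 1430127_a_at and 1448229_s_at they were −0.57 to 0.14, −0.97 to 0.045, −0.38 to 0.11, −0.70 to 0.088 and −0.25 to 0.086, for 1416122_at −0.61 to −0.034 and for 1455956_x_at −0.55 to −0.13. For Cdk6 1435338_at and 1460291_at they were −0.32 to 0.35 and 0.32 to 0.84, and 1455287_at lay between 0.0034 and 0.15. For Ccnd3 1415907_at, 1438805_at and 1444323_at they were 0.31 to 0.73, −1.61 to −0.67 and 0.16 to 1.24, and the Cdk4 probe sets lay between 0.05 and 0.46.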
